A study of Mus musculus with 6 samples.

Results

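The 3 parental libraries of MOC2 were taken as the members, out of 6 libraries in the series, by their wild-type genotype label. MOC2 is a mouse oral squamous cell carcinoma (OSCC) line that was derived from a carcinogen-induced tumour of the mouth and forms tumours in immunocompetent mice. The 3 cultures carried wild-type p62, the autophagy receptor encoded by Sqstm1, grew in serum-containing DMEM and received no treatment. The libraries represent a single cell line in culture, and the age of the source animal is not given in the sources used here. Poly(A) RNA was sequenced, and the knockout libraries of the series were not analysed here. The series gives the cultures as biological replicates, but whether they were thawed and passaged separately is not given in the sources used here.

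Oral squamous epithelium is stratified. Its basal cells are known for the keratins KRT5 and KRT14 and the transcription factor p63, and its upper layers for mucosal and cornification keratins and envelope proteins. Simple, single-layered epithelia use KRT7, KRT8, KRT18 and KRT19 instead. Carcinoma cells of the mouth can lose parts of the stratified programme and take up mesenchymal genes, and they signal to fibroblasts, vessels and leukocytes through secreted growth factors, cytokines and chemokines.

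Parental replicates 1, 2 and 3 held 39185828, 38490029 and 33349014 exon reads, and values are given in this order throughout. Levels are in TPM (transcripts relative to a common total, from reads per exon length), so that genes can be compared with each other. A gene was counted as expressed at 1 TPM or more in all 3 libraries. Of 21797 genes with an exon length, 11275 were expressed, which is 51.7%. That share is the reference for the counts of expressed list members below. Another 572 reached 1 TPM in 1 or 2 libraries, 4519 had reads but stayed under 1 TPM, and 5431 had no read in any library, which is 24.9%. For a gene of median length, a count of 0 allows up to 3 reads, or 0.0654 to 0.0751 TPM per library. The median was 2.08 TPM over all measured genes and 25.4 TPM over the expressed ones. Levels were concentrated in few genes, with 35.1% of all TPM in the 100 highest genes. Intervals and limits on counts cover counting error only.

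The most abundant transcripts outside the ribosomal and mitochondrial genes were those of translation, iron storage and the cytoskeleton, joined by a secreted matrix protein. Eef1a1, which encodes a translation elongation factor, stood at 20092, 20331 and 19634 TPM. Spp1 (ENSMUSG00000029304), which encodes the secreted phosphoprotein osteopontin, stood at 4303, 4755 and 4285 TPM, near the top of this set. Ferritin light chain, Ftl1, stood at 3241, 4239.9 and 5431 TPM, and heavy chain, Fth1, at 3695, 3202 and 3019 TPM. Hmga1, a chromatin protein gene, was listed at 3116, 3942 and 4629 TPM, but only 25.7% of its reads were unique, so its level is uncertain. The tight junction gene Cldn4 and the keratin gene Krt18 were among the same 20 genes. Sqstm1 (ENSMUSG00000015837) itself was high, at 1432, 1659 and 1792 TPM, or 1628 ± 182 TPM (SD, n = 3). Replicate 1 was the lowest library for Sqstm1 and replicate 3 the highest.

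Epithelial genes were high in all 3 libraries, and the keratins were those of simple more than of stratified epithelium. Of 5 simple keratins, 4 were expressed, with a summed level of 5614, 6727 and 5517 TPM. Of 16 stratified keratins, 6 were expressed, with a summed level of 211, 246 and 190.3 TPM. Krt18 stood at 1782, 2086 and 1670.4 TPM, and its partner Krt8 at 654, 823 and 832 TPM. Krt7 stood at 1585, 1986 and 1604 TPM, and Krt19 at 1594, 1831 and 1411 TPM. All 4 simple keratins lay above every stratified keratin in every library.

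Several defining genes of the basal squamous layer were at or near 0, while Krt14 and Krt17 were expressed. Krt5 (ENSMUSG00000061527) had 0, 1 and 0 reads, where a count of 0 allows up to 0.1003 TPM. Trp63 (ENSMUSG00000022510), which encodes p63, had 9, 21 and 1 reads, or 0.0685, 0.166 and 0.00875 TPM. Dsg3, the desmoglein of stratified epithelium, had 5, 5 and 3 reads, and Dsc3, a desmocollin found with it, had none. Krt6a had 4, 1 and 0 reads. Krt1, Krt2, Krt75 and Krt76, keratins of differentiated skin, hair and mucosa, had no read. Krt14, the usual partner of KRT5, was present at 20.02, 25.8 and 22.9 TPM, and Krt17, which basal and wounded epithelia make, at 132, 147 and 107 TPM. By mean TPM the highest stratified keratins were, in order, Krt17, Krt80, Krt14, Krt10, Krt15 and Krt4. The label names a squamous carcinoma. Of the basal trio Krt5, Krt14 and Trp63, Krt14 alone was expressed. The data thus bear out the epithelial part of the label, and its stratified and basal squamous markers only in part.

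Other genes of stratified and oral epithelium were expressed. The desmosome gene Pkp1 stood at 40.2, 38.0 and 35.2 TPM, and Dsp, the desmoplakin gene, at 37.9, 47.8 and 50.5 TPM. Sox2, a factor of foregut and oral epithelium, stood at 13.2, 12.8 and 13.5 TPM, and Pax9, a factor of tooth and mouth development, at 12.2, 13.7 and 14.3 TPM. Pitx1, which marks the oral epithelium and the hindlimb, was nearly equal in the 3 libraries at 91.7, 92.0 and 91.0 TPM. Of 18 cornification genes, 5 were expressed. Sprr1a, a precursor of the cornified envelope, led them at 83.7, 146 and 121 TPM. Flg, Sprr3, Calml3 and Krtdap, which serve late differentiation, had no read.

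General epithelial genes were expressed almost throughout: 24 of 26 junction genes and 17 of 21 epithelial transcription and splicing factors. Cldn4 stood at 1396, 2185 and 2311 TPM, and Cldn3 at 598, 976 and 944 TPM. Cdh1 (ENSMUSG00000000303), which encodes E-cadherin, stood at 362, 417 and 411 TPM, and the adhesion gene Epcam at 552, 577 and 461 TPM. The epithelial splicing regulator gene Esrp1 stood at 108, 102 and 92.5 TPM, and the transcription factor gene Elf3 at 87.5, 126 and 143 TPM.

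Some mesenchymal genes were expressed beside these. They were 13 of 22, or 59.1%, which is near the 51.7% of all measured genes. Fn1, which encodes fibronectin, was near the level of the simple keratins and nearly equal in the 3 libraries at 1406, 1337 and 1413 TPM. Vim, the intermediate filament vimentin, stood at 269, 511 and 719 TPM, lowest in replicate 1 and highest in replicate 3. Axl, a receptor kinase often tied to this state, stood at 574, 448 and 399 TPM. Among the transcription factors, Twist1 stood at 21.7, 26.4 and 29.5 TPM, Zeb1 at 4.40, 6.01 and 8.54 TPM and Snai1 at 1.97, 2.53 and 2.18 TPM. Cdh2, which encodes N-cadherin, was expressed at 20.7, 21.4 and 26.5 TPM, far below Cdh1 in every library. Postn, the periostin gene, had no read. Of 13 fibroblast and pericyte markers, 3 were expressed, with a summed level of 8.95, 12.6 and 7.97 TPM, and Dpt and Lum had no read.

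**Figure D1:**
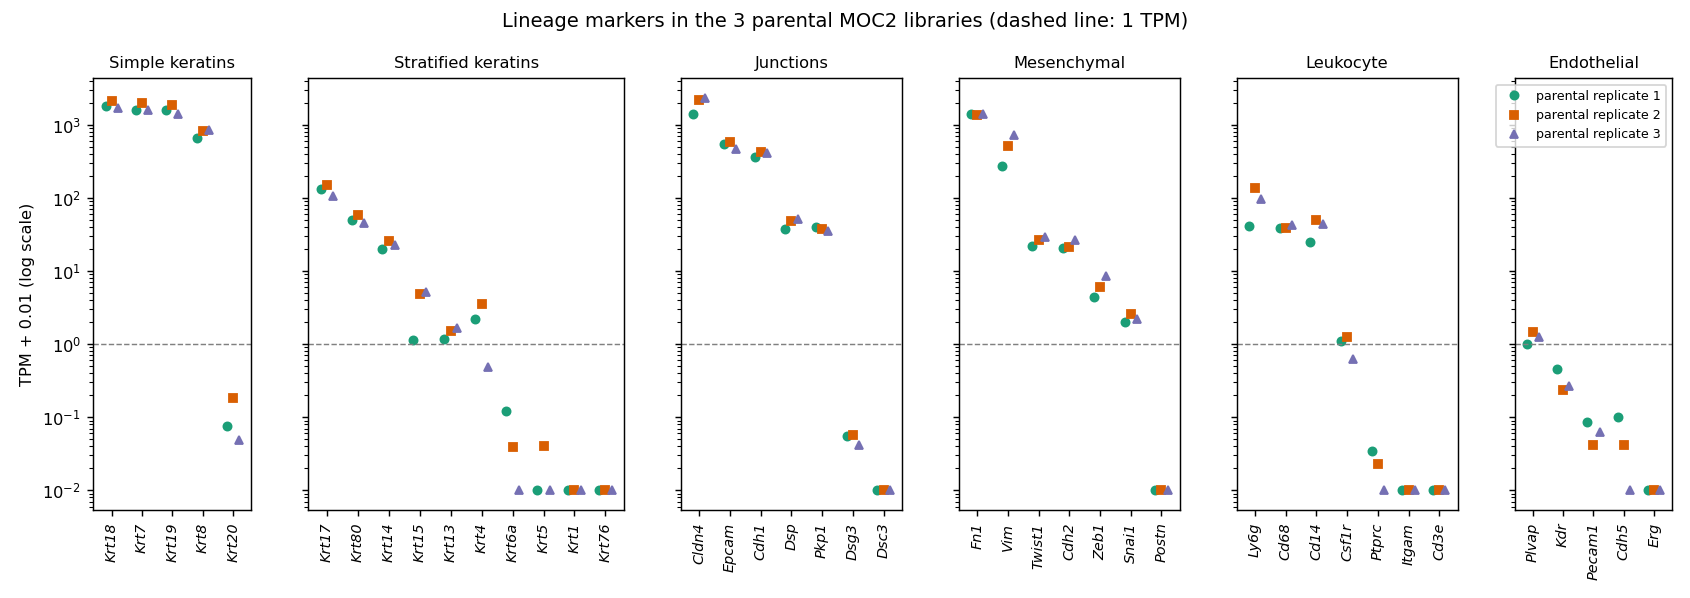
Levels of lineage markers in the 3 parental libraries, as TPM + 0.01 on a log scale, with 1 point per library and a dashed line at 1 TPM. The 4 simple keratins Krt18, Krt7, Krt19 and Krt8 sit above every stratified keratin, and Krt5, Dsg3, Dsc3, Postn, Ptprc and Erg sit at or near the floor of the plot.

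Markers of other cell types were mostly absent, with exceptions. None of 12 endothelial, 7 melanocyte or 10 skeletal muscle markers was expressed. Of 12 neural and neuroendocrine markers, 3 were expressed, namely the transcription factor gene Insm1 at 8.95, 11.95 and 8.32 TPM, the tubulin gene Tubb3 at 5.30, 3.40 and 6.45 TPM and the synaptic gene Snap25 at 3.52, 3.82 and 2.01 TPM. Chga and Neurod1 had no read. Of 9 pluripotency and germ cell markers, the helicase gene Ddx4 alone was expressed, at 1.42, 1.54 and 1.22 TPM. Of 24 leukocyte markers, 3 were expressed and 9 had no read. Ptprc, which encodes CD45 of all nucleated blood cells, had 2, 1 and 0 reads, and Itgam and Cd3e had none. The 3 that were expressed were Cd68 at 38.1, 38.8 and 42.4 TPM, Cd14 at 24.7, 49.4 and 43.7 TPM and Ly6g at 41.0, 138 and 95.2 TPM. Ly6g, whose product is used as a neutrophil marker in mice, varied most of these, with replicate 1 the lowest and replicate 2 the highest. All 3786 Ly6g reads were unique. Other genes of the same family were higher still: Ly6a, which encodes the surface protein Sca-1, stood at 924, 1441 and 1259 TPM, and Ly6c1 at 1052, 1448 and 1054 TPM. The 4 Y-linked genes listed had no read.

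Of 16 lineage factors of other epithelia, 10 were expressed, or 62.5%, against 51.7% of all measured genes. Sox9, a factor of many glandular and progenitor epithelia, led at 85.0, 93.4 and 98.0 TPM. Cdx2 (ENSMUSG00000029646), known as the intestinal homeobox factor, stood at 18.8, 25.4 and 25.7 TPM. In replicate 1, the lowest library for Cdx2, the exact Poisson 95% interval was 17.4 to 20.3 TPM. Foxa1, a factor of gut, prostate and breast epithelium, stood at 14.98, 17.6 and 19.0 TPM, and its relative Foxa2 at 10.3, 15.6 and 12.3 TPM. The thyroid and lung factor Nkx2-1 had no read, and Hnf4a, the liver and gut factor, had 1, 0 and 0 reads. Of 16 homeobox genes of the jaw and mouth, 7 were expressed. Msx2, a factor of tooth and skull development, stood at 18.2, 20.3 and 14.2 TPM, whereas Barx1 and Lhx8, which pattern the jaw mesenchyme, had no read.

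Hox genes, which mark positions along the trunk and are switched off in the tissue that builds the jaws, were expressed mainly from the Hoxa and Hoxb clusters. In the Hoxb cluster 8 of 10 genes were expressed, and in the Hoxa cluster 10 of 11. None of 9 Hoxc genes was expressed, and of 9 Hoxd genes Hoxd8 alone was, at 22.7, 20.7 and 11.8 TPM. Hoxb9 (ENSMUSG00000020875) was the highest at 155, 192 and 234 TPM, followed by Hoxb7 at 43.2, 63.2 and 65.5 TPM and Hoxb6 at 38.1, 47.3 and 61.2 TPM. Hoxb8 at 36.6, 48.0 and 49.9 TPM was not separated from Hoxb6, since their order changed between libraries. Hoxb1, the gene at the anterior end of the cluster, had no read, and Hoxb2 stood at 1.18, 1.26 and 0.993 TPM. The summed level of the Hoxb genes was 326, 406 and 471 TPM, against 62.1, 63.6 and 61.0 TPM for the Hoxa genes.

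**Figure D2:**
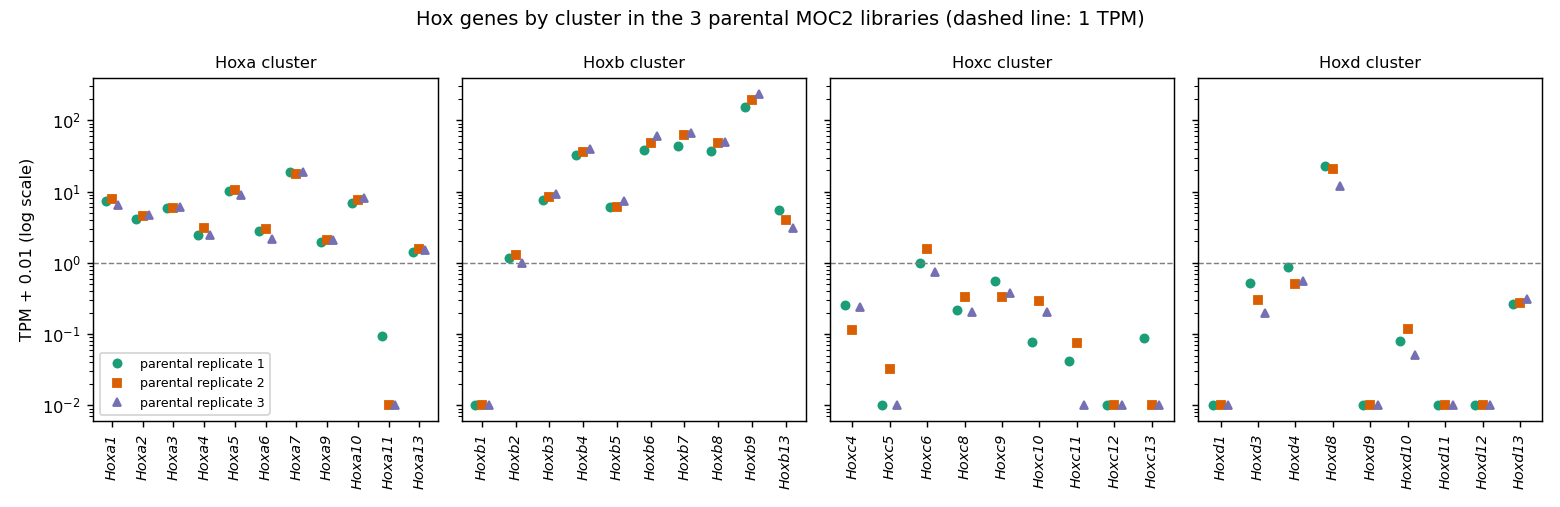
Levels of the Hox genes of each cluster in the 3 parental libraries, as TPM + 0.01 on a log scale, ordered by paralogue number, with 1 point per library and a dashed line at 1 TPM. Hoxb9 is the highest at 155 to 234 TPM, 8 of 10 Hoxb and 10 of 11 Hoxa genes are expressed, and Hoxd8 stands alone above the line in its cluster.

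Among genes altered in oral cancer, 31 of 32 were expressed. Cdkn2a, the locus of the p16 and p19ARF tumour suppressors, stood at 529, 612 and 539 TPM, and Cdkn2b beside it at 158, 171 and 161 TPM. Ccnd1, which encodes cyclin D1, stood at 528, 565 and 556 TPM, and Myc at 409, 448 and 462 TPM. Trp53, the p53 gene, stood at 14.2, 16.5 and 16.4 TPM, below the 25.4 TPM median of expressed genes in each library. TPM gives the amount of transcript and says nothing of mutations.

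Receptor tyrosine kinases, which carry growth factor signals, were led by EPHA2 and AXL. Of 55 in the list, 26 were expressed, against 51.7% of all genes. Epha2 (ENSMUSG00000006445) stood at 448, 495 and 639 TPM, and Ephb4, another ephrin receptor, at 235, 195 and 134 TPM. The order of Axl and Epha2 changed between libraries, with Axl the higher in replicate 1 and Epha2 in replicates 2 and 3. Fgfr1 stood at 123.1, 115 and 95.9 TPM and the collagen receptor gene Ddr1 at 101, 114 and 94.0 TPM. Growth factor receptor kinases often studied in carcinomas were lower: Egfr stood at 20.8, 21.1 and 23.6 TPM, Met at 41.3, 38.7 and 37.6 TPM and Erbb2 at 43.8, 47.7 and 30.7 TPM. Flt3, best known from blood progenitors, was expressed at 16.1, 12.1 and 9.38 TPM. Erbb4 had 5, 8 and 5 reads and Fgfr2, the FGF receptor of many epithelia, had 9, 2 and 3.

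Of 49 cytokine receptors, 24 were expressed, at low to moderate levels. Ghr, the growth hormone receptor gene, led at 52.7, 44.5 and 44.4 TPM. Both chains of the interferon receptors were present: Ifngr1 stood at 40.1, 45.0 and 41.1 TPM, Ifngr2 at 19.0, 25.7 and 30.4 TPM, Ifnar1 at 31.6, 31.7 and 35.7 TPM and Ifnar2 at 23.02, 22.997 and 21.7 TPM. Of the TNF receptor family, 10 of 25 were expressed, and Tnfrsf12a, which encodes FN14, stood far above the rest at 555, 683 and 845 TPM. Fas, the death receptor gene, was under 1 TPM in 2 libraries, at 0.458, 0.406 and 1.504 TPM. Chemokine receptors were nearly silent, with 2 of 22 expressed, which were Ackr3 at 8.76, 5.08 and 3.99 TPM and Cxcr4 at 5.83, 4.68 and 3.62 TPM. The thrombin receptor gene F2r at 143, 166 and 143 TPM and F2rl1, the receptor for trypsin-like proteases, at 103, 96.1 and 73.7 TPM led the receptors for lipids, peptides and proteases, of which 12 of 35 were expressed.

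Of 32 receptors for TGF-beta, BMP, Wnt, Notch and Hedgehog ligands, 23 were expressed, led by Tgfbr2 at 102, 104 and 74.3 TPM. Of 25 integrins, 14 were expressed, or 56%, near the 51.7% of all measured genes. The laminin receptor chains Itga3 at 729, 793 and 780.3 TPM and Itgb1 at 807, 811 and 789 TPM were the highest. Itga6, which pairs with ITGB4 in hemidesmosomes, stood at 216, 247 and 211 TPM and Itgb4 at 69.2, 78.3 and 67.5 TPM. Itgb7, otherwise a lymphocyte integrin chain, stood at 25.3, 8.05 and 12.1 TPM, with replicate 1 above the other libraries.

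The secreted factors included several chemokines that draw neutrophils. Of 36 chemokines, 12 were expressed. Cxcl16, a chemokine made with a membrane stalk, led at 316, 382 and 332 TPM. The neutrophil chemokine genes followed, with Cxcl5 at 136, 173 and 107 TPM, Ppbp at 89.0, 159.6 and 82.6 TPM and Cxcl1 at 104, 77.3 and 116 TPM. Cxcr2, their shared receptor, had 0, 0 and 2 reads. Ccl5, a T cell chemokine gene, stood at 27.99, 30.6 and 75.7 TPM, and replicate 3 was far above the other libraries.

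Of 57 cytokines, 18 were expressed. Mif, the macrophage migration inhibitory factor gene, led at 1104, 883 and 857 TPM. Tslp (ENSMUSG00000024379), the epithelial alarmin gene, stood at 388, 551 and 490.3 TPM, or 476 ± 82.1 TPM (SD, n = 3). Il34, a ligand of the macrophage receptor CSF1R, stood at 159, 148 and 110.3 TPM, above Csf1, the classical ligand of that receptor, at 12.4, 9.15 and 9.88 TPM. Il1a was nearly equal in the 3 libraries at 132, 132 and 129 TPM, while Il1b had 7, 8 and 3 reads. Il23a, the p19 subunit of interleukin 23, stood at 131, 84.2 and 82.3 TPM, but Il12b, the subunit it needs for secretion, had no read, which allows up to 0.112 TPM. Csf3, the granulocyte colony-stimulating factor gene, stood at 88.6, 73.2 and 89.6 TPM. Csf2, its granulocyte-macrophage counterpart, stood at 15.9, 23.4 and 77.4 TPM, and replicate 3 stood far above the other libraries. Il6 and Tnf had 1 read each over the 3 libraries, and Ifng had none.

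Of 68 growth factors, 42 were expressed, or 61.8%, against 51.7% of all measured genes. Vegfa, the vessel growth factor gene, stood at 462, 429 and 305 TPM. The EGF receptor ligands Hbegf at 185, 186 and 165 TPM and Areg at 119, 82.0 and 97.3 TPM were well above Egf at 0.361, 0.263 and 0.179 TPM. Igf1, which stroma usually provides, had no read. Ccn1, a matrix-bound growth factor of YAP and serum responses, stood at 315, 403 and 633 TPM, lowest in replicate 1 and highest in replicate 3. Of 32 Wnt ligands and antagonists, 10 were expressed, and Wnt7b at 204, 239 and 213 TPM, Wnt7a at 202, 168 and 134 TPM and Wnt10a at 76.9, 89.5 and 53.6 TPM made up most of their sum. Cck, the gene of the gut hormone cholecystokinin, was expressed at 31.9, 36.7 and 22.2 TPM.

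Of 28 collagens and laminins, 14 were expressed, or 50%, near the 51.7% of all measured genes. The epithelial laminin chain genes Lama3 and Lamb3 stood at 83.0, 77.5 and 66.2 TPM and at 57.6, 69.8 and 54.5 TPM. The fibrillar collagen gene Col1a1 stood at 0.754, 1.03 and 1.03 TPM, and Col1a2 had 0, 0 and 1 reads. Among 43 matrix proteases and inhibitors, 29 were expressed, with Ctsd, the cathepsin D gene, at 994, 1130.1 and 1015 TPM. Plau, the urokinase gene, stood at 242, 301 and 294 TPM, and its receptor gene Plaur at 112, 117 and 137 TPM. Mmp14, the membrane-bound collagenase gene, stood at 109, 141 and 132 TPM, above Mmp9 at 6.54, 6.08 and 4.04 TPM and Mmp2 at 1.41, 1.46 and 0.334 TPM.

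When 24 ligands were set beside their receptors, 22 ligands were expressed. For 7 of these every listed receptor was expressed too, for 7 none was, and for 8 some were. The sets were chosen after their values were seen, so these counts describe the choice. They are also uneven, with Egfr and Erbb4 listed for HB-EGF and Egfr alone for amphiregulin. The sets with every listed receptor expressed included ephrin-A1 with EPHA2, ephrin-B2 with EPHB4, and GAS6 with AXL, TYRO3 and MERTK. Efna1 stood at 53.6, 59.6 and 71.6 TPM, Efnb2 at 25.2, 23.8 and 26.5 TPM and Gas6 at 84.5, 77.8 and 46.9 TPM. Several cytokines lacked a chain of their receptor in the line. TSLP signals through CRLF2 and IL7R: Crlf2 stood at 24.3, 26.6 and 22.3 TPM, and Il7r had no read. GM-CSF signals through CSF2RA and CSF2RB: Csf2ra stood at 13.9, 19.0 and 17.0 TPM, and Csf2rb had 1, 0 and 0 reads. Csf3r, the receptor gene for G-CSF, and Cckar and Cckbr, those for cholecystokinin, had no read. The reverse held for HGF and TWEAK, whose receptor genes Met and Tnfrsf12a were expressed. Hgf had 0, 0 and 2 reads, and Tnfsf12, the TWEAK gene, stood at 0.295, 0.568 and 0.533 TPM. Transcript levels do not show whether a protein was made or secreted.

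**Figure D3:**
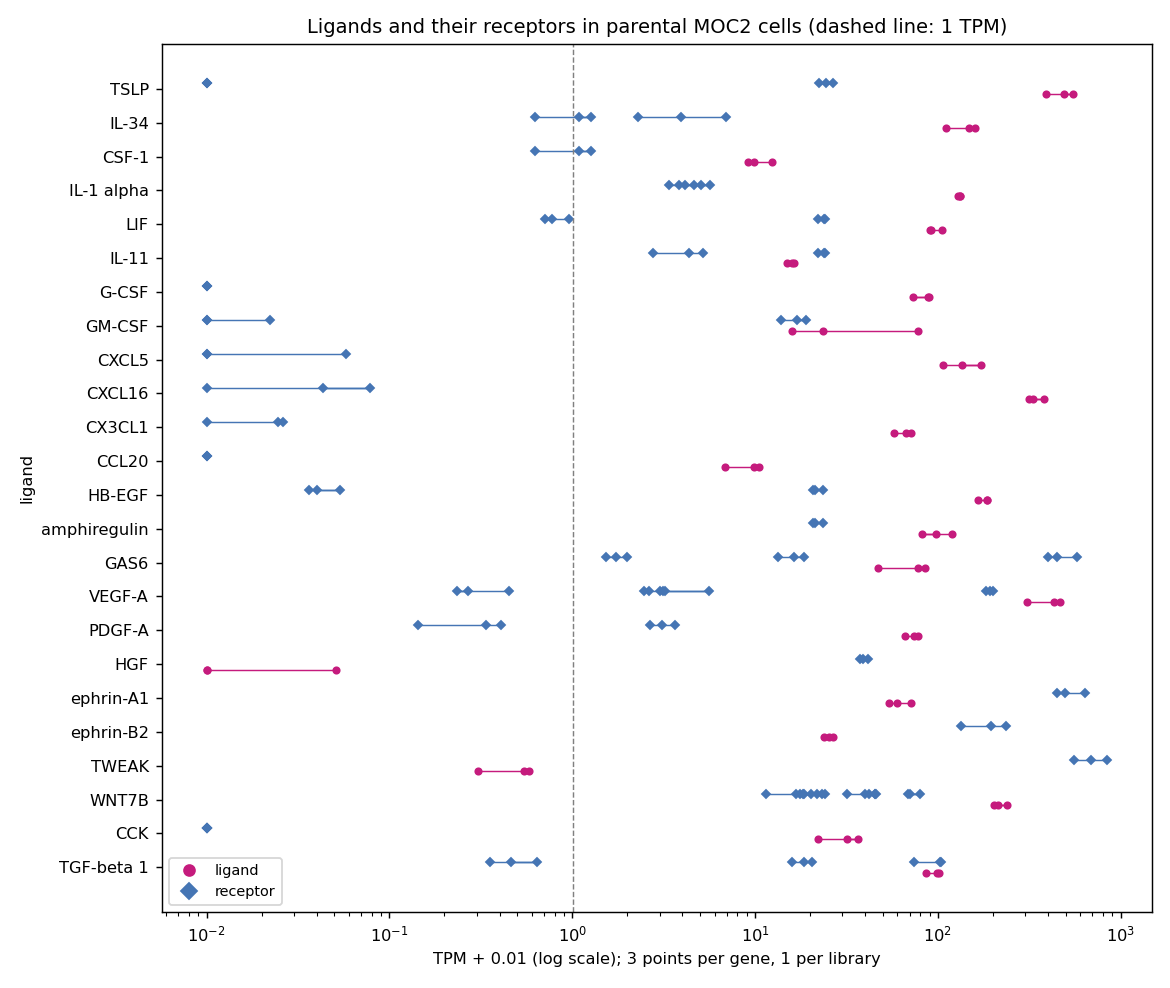
Levels of 24 ligands (circles) and their receptors (diamonds) in the 3 parental libraries, as TPM + 0.01 on a log scale, with 1 point per gene and library, the points of a gene joined by a line, and a dashed line at 1 TPM. For G-CSF, CXCL5, CXCL16, CX3CL1, CCL20 and CCK the ligand lies above 1 TPM and every listed receptor far below it. HGF and TWEAK show the reverse.

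Antigen presentation genes of class I were high, and the class II chains were at or near 0. B2m stood at 1372, 1255 and 1530.0 TPM, H2-K1 at 921, 828 and 842 TPM and H2-D1 at 643, 562 and 609.7 TPM. The peptide transporter genes were lower, with Tap1 at 15.5, 15.8 and 19.7 TPM and Tap2 at 18.8, 17.6 and 14.4 TPM. Of the class II chain genes, H2-Aa had no read and H2-Ab1 had 5, 0 and 2 reads. Ciita, the class II master regulator gene, had 1, 0 and 0 reads. Cd74, the invariant chain gene, stood at 6.82, 4.30 and 1.76 TPM, with replicate 1 the highest and replicate 3 the lowest. Of 27 checkpoint and ligand genes, 14 were expressed, or 51.9%, near the 51.7% of all measured genes. Cd274, which encodes PD-L1, was low at 2.29, 2.01 and 3.29 TPM, and Pdcd1lg2, which encodes PD-L2, had no read. Cd276, which encodes B7-H3, stood at 49.5, 56.9 and 44.9 TPM, and Pvr, the ligand gene for TIGIT and DNAM-1, at 134, 151 and 168 TPM. Tigit, the gene of TIGIT itself, was also expressed, at 172, 122 and 78.5 TPM, with replicate 1 the highest and replicate 3 the lowest.

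Interferon-induced genes were expressed without an added interferon, 28 of 29, with a median of 19.0 TPM. That median lay below the 25.4 TPM median of all expressed genes. Bst2, the tetherin gene, stood at 495, 471 and 494 TPM and Isg15 at 91.5, 92.7 and 106 TPM. Ifnb1 itself had 0, 0 and 2 reads. Amino acid and stress genes driven by ATF4 were high, with 24 of 25 expressed and a median of 186 TPM. Atf4 stood at 845, 780.0 and 657 TPM, and Phgdh, the first enzyme of serine synthesis, at 811, 631 and 537 TPM. All 25 cholesterol synthesis genes were expressed, with a median of 39.5 TPM.

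Gene families of the senses and of hair were silent. None of 1191 olfactory receptor genes was expressed, and 1105 had no read, against 24.9% of all genes. Of 355 vomeronasal receptor genes 321 had no read, and of 57 keratin-associated protein genes 50 had none. The highest olfactory receptor gene reached a mean of 0.963 TPM. In all, the 1191 olfactory receptor genes held 807 reads over the 3 libraries.

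The 3 cultures differed from each other by more than counting error. Over the 8408 genes that averaged 10 TPM or more and had at least 100 reads in every library, the highest library exceeded the lowest by a median of 1.24-fold. The median coefficient of variation was 11.1%, against a median counting error of 2.22% for a single library. At 2-fold or more between the highest and lowest library stood 346 genes, or 4.12%. Of these, 151 were lowest in replicate 1 and highest in replicate 3, or 1.8% of the 8408 genes. Another 171 were highest in replicate 1 and lowest in replicate 3, or 2.03%. The remaining 24 had replicate 2 at an extreme. Replicates 1 and 3 were thus the pair farthest apart, with a Pearson correlation of log2 TPM over the 11275 expressed genes of 0.969, against 0.988 and 0.989 for the pairs with replicate 2. Genes are not independent replicates, and this correlation is a description. Without replicate 1 the count of 346 was 39 genes, without replicate 3 it was 66, and without replicate 2 it was 327. For a given gene, leaving out a library cannot raise this ratio, so a lower count is partly fixed in advance.

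Genes of cell division were among those that differed most. All 34 mitosis genes were expressed, with a summed level of 360.3, 1009.5 and 1539 TPM, and all 36 S phase genes, with 923, 1183 and 1577 TPM. Of the 29 mitosis genes that passed the filter on level, 28 were among the 151 genes that were lowest in replicate 1 and highest in replicate 3, against 1.8% of all 8408 genes. Of the 26 S phase genes that passed it, 12 were among the 151. The mitosis total differed 4.27-fold between its highest and lowest library. It differed 1.52-fold without replicate 1, 2.8-fold without replicate 3 and 4.27-fold without replicate 2. In bulk RNA, fewer dividing cells and less of these transcripts per cell cannot be told apart.

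Of the 12 genes with the widest spread, 11 act in mitosis. Mki67 (ENSMUSG00000031004), which encodes the proliferation marker Ki-67, stood at 3.51, 18.3 and 34.7 TPM. It was named for its spread, so these levels are a description. Nusap1, a spindle protein gene, stood at 2.48, 12.9 and 24.6 TPM, or 9.90-fold from lowest to highest. The mitotic kinesin gene Kif18b stood at 3.82, 18.6 and 36.5 TPM. Birc5, which encodes survivin, stood at 2.91, 10.3 and 20.9 TPM, and Ccnb2, which encodes cyclin B2, at 5.68, 30.9 and 39.9 TPM. Top2a, the topoisomerase gene and the most abundant of the list, stood at 40.1, 118 and 191 TPM. A single mitosis gene that passed the filter did not follow: Pttg1, which encodes securin, was flat at 40.5, 41.1 and 41.6 TPM. As a list the S phase genes moved less, by a median of 1.82-fold against 5.16-fold for the mitosis genes that passed the filter. Single S phase genes varied, with Pcna at 179.7, 201 and 271 TPM. Mcm5 stood at 14.0, 27.1 and 44.5 TPM, or 3.18-fold from lowest to highest.

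**Figure D4:**
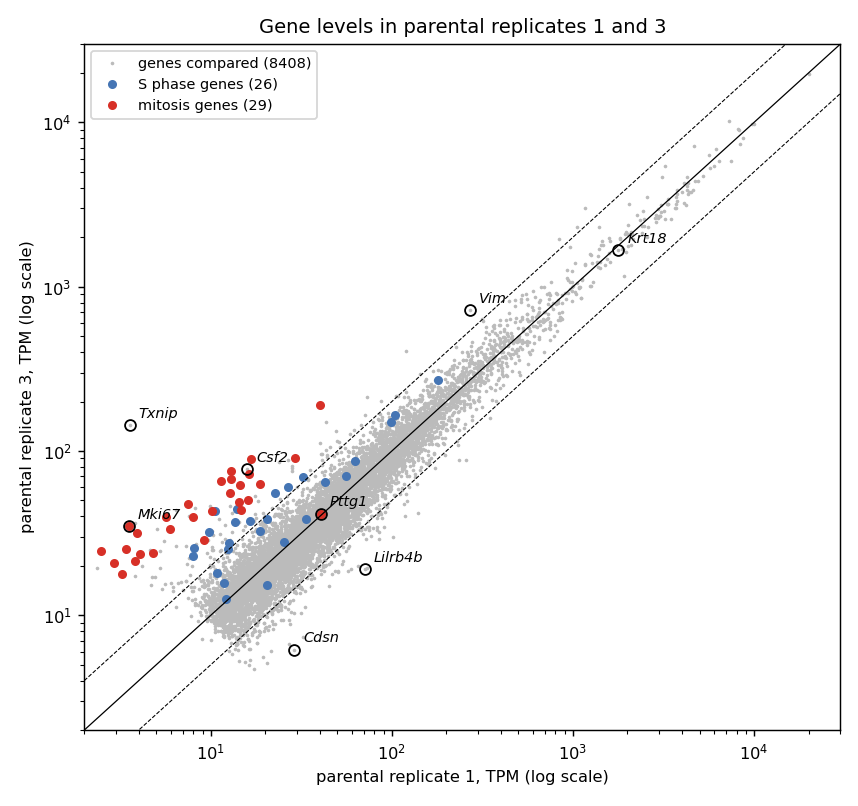
TPM of 8408 genes in parental replicate 1 (horizontal) and replicate 3 (vertical), both on log scales, with equality as a solid line and 2-fold differences as dashed lines. Mitosis genes (red) lie above the upper dashed line except Pttg1. S phase genes (blue) lie nearer to equality by their median ratio, with 12 of 26 above the same dashed line. Txnip lies farthest from equality.

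The widest gene of all was Txnip (ENSMUSG00000038393), which encodes an arrestin-like protein that restrains glucose uptake. It stood at 3.57, 11.2 and 144 TPM, from 158, 480 and 5557 reads, so that replicate 3 was 40.4-fold above replicate 1. Its known inducer is glucose, through a carbohydrate response element made of paired E-box-like sites.

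The promoter windows of Txnip and of 3 mitosis genes are shown because these genes differed widely between the replicates or, for Pttg1, did not. They run from 250 bases before to 50 bases after the annotated start, 5′ to 3′ on the gene's strand, from RefSeq on GRCm38.p6. Capitals mark in Txnip the letters CACGNG, a gap of 5 bases and CACGNG again. In the others they mark TTTGAA, the core of the cell cycle genes homology region, and CCAAT, on either strand. Txnip lies at chr3:96557707-96558006 on the plus strand. Mki67 lies at chr7:135716330-135716629, Kif18b at chr11:102925075-102925374 and Pttg1 at chr11:43425932-43426231, all on the minus strand.
Txnip: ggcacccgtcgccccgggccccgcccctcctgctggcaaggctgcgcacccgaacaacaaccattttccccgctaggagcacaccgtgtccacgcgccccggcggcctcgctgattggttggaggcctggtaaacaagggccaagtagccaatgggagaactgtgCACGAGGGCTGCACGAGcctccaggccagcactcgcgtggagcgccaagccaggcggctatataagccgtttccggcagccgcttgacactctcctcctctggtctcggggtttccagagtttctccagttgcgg
Mki67: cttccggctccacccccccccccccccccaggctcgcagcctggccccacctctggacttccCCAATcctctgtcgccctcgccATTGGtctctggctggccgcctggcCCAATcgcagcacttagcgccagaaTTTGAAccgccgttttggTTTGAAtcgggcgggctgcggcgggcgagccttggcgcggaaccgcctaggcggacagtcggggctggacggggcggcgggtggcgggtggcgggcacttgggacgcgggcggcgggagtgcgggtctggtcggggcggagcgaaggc
Kif18b: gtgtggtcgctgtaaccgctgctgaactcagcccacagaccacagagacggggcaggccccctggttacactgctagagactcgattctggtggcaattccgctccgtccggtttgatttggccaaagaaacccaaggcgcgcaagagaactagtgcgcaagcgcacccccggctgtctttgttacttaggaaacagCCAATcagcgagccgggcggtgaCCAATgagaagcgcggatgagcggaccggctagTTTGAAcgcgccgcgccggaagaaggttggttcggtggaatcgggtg
Pttg1: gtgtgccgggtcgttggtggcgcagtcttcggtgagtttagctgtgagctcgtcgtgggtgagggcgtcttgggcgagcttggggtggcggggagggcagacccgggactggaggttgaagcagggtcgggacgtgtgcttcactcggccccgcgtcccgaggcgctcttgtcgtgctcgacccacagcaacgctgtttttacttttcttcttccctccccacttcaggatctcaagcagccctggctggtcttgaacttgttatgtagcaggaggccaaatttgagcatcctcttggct

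The paired letters searched in Txnip occurred in the first listed window of 14 of 27025 genes, and in Txnip they began at position -85 from the start. TTTGAA or its reverse complement occurred in 22 of the 30 mitosis genes with a window, or 73.3%, against 18.1% of all genes. CCAAT or its reverse complement occurred in 73.3% of the mitosis genes against 37.9% of all genes, and both together in 63.3% against 7.12%. Among 27 S phase genes with a window, 4 held TTTGAA and 16 held CCAAT. The Mki67 window held 2 of the first and 3 of the second, and the Kif18b window 1 and 2. The windows of Nusap1 and Birc5, which varied widely, and of Pttg1, which was flat, held neither. A match is a description of the letters and not a bound site, and no match says only that these letters are not in this window.

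Other genes high in replicate 3 had varied roles. They included 3 clock genes, picked after their values were seen: Nr1d1 stood at 43.2, 61.5 and 151 TPM, Dbp at 14.2, 29.97 and 37.0 TPM and Per1 at 19.4, 23.98 and 42.1 TPM. Csf2, Ccl5 and Vim, given above, belonged here too. Of the 22 interferon-induced genes that passed the filter, 3 were in this group, against 1.8% of all 8408 genes, with Ifit3 at 43.5, 69.4 and 94.6 TPM. At any size of difference, 14 of the 22 were lowest in replicate 1 and highest in replicate 3, against 24.1% of all 8408 genes.

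Among the 171 genes highest in replicate 1 and lowest in replicate 3, Cdsn, which encodes corneodesmosin of cornifying epithelium, had the widest ratio, at 29.0, 13.5 and 6.17 TPM, or 4.69-fold. Lilrb4b, a leukocyte receptor gene, stood at 71.0, 22.7 and 19.1 TPM, with 87.7% of its reads unique. Apln, the gene of the vessel peptide apelin, stood at 19.5, 14.9 and 5.60 TPM. Of the 24 ATF4 genes that passed the filter, 4 were among the 171, against 2.03% of all 8408 genes. At any size of difference, 20 of the 24 were highest in replicate 1 and lowest in replicate 3, against 34.5% of all 8408 genes. The summed list stood at 7332, 7184 and 5502 TPM. Trib3, a pseudokinase gene of the stress response, stood at 347, 288 and 158 TPM, and Chac1, whose product degrades glutathione, at 256, 199 and 88.1 TPM.

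Lineage and surface lists differed between cultures by varied amounts, given here as medians over the members that passed the filter, against 1.24-fold for all 8408 genes. The integrins differed by 1.13-fold, the genes altered in oral cancer by 1.2-fold and the simple keratins by 1.26-fold. Above these lay the epithelial junction genes at 1.3-fold, the receptor tyrosine kinases at 1.33-fold, the cytokines at 1.34-fold and the mesenchymal genes at 1.36-fold. The growth factors differed by 1.45-fold and the Hox genes by 1.51-fold. Other lists lay higher, among them the matrix glycoproteins at 1.53-fold and the chemokines at 1.61-fold. Some medians rest on few genes, namely 4 simple keratins, 7 Hox genes, 7 chemokines, 8 mesenchymal genes and 10 integrins. The narrowest genes included Pcm1, a centriolar satellite gene, at 42.1, 41.9 and 42.0 TPM, and Psmd2, a proteasome subunit gene, at 402, 400.2 and 399 TPM.

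**Figure D5:**
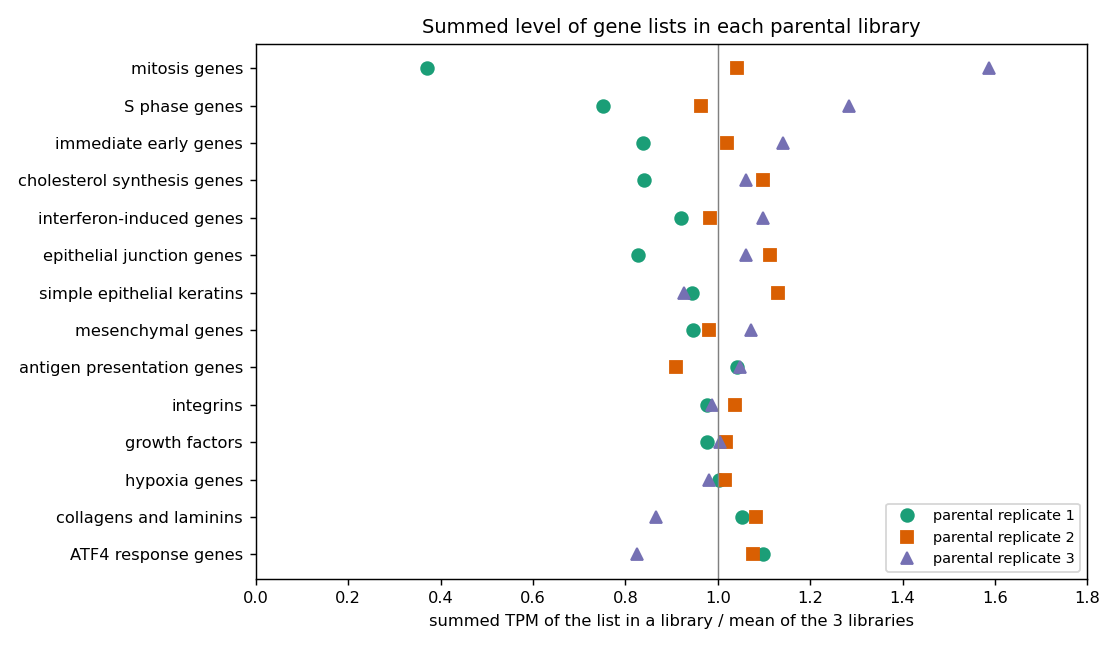
Summed TPM of 14 gene lists in each parental library, divided by the mean of the 3 libraries, with 1 symbol per library and a line at 1. Mitosis genes run widest, from 360 TPM in replicate 1 to 1539 TPM in replicate 3, followed by S phase genes. The growth factor and hypoxia totals lie close to the line, and the ATF4 total is lowest in replicate 3. A total can hide opposite changes of its members. The 25 growth factors that passed the filter differed by a median of 1.45-fold. Of them, 9 were lowest in replicate 1 and highest in replicate 3, and 8 the reverse.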

How the data were processed

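RNA-seq of 3 parental MOC2 libraries was described, grouped by the genotype label. Per the labels' protocols, poly(A) RNA was made into directional paired-end libraries. The authors deposited raw whole-number counts of total and of unique exon reads for each gene, per the file headers. The deposited TPM values, per the file headers, stand beside them, and recomputation from total exon reads and exon length differed by at most 5.82e-11. GRCm39 is named as the build in the submitters' processing notes. The read aligner, the counting tool, the gene models and the strandedness used in counting were not given in the sources used here, so overlapping, antisense and near-identical genes are uncertain. The tables carry no coordinates.

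Of 25526 genes, 3729 had an exon length of 0 and no reads, and 21797 were used. Library sizes and unique shares were 33349014 to 39185828 reads and 96.9 to 97.1%. Over genes averaging 10 reads or more, chi-square per degree of freedom between pairs of libraries was 40.8 to 98.4, above the 1 of sampling noise, so all 3 were counted. Summaries used Python 3.11.15, pandas 2.3.3, numpy 2.4.6 and scipy 1.17.1. TMM factors came from edgeR 4.0.16 under R 4.3.3. The spread between libraries is the ratio of highest to lowest TPM and the SD of log2(TPM + 1). The code was tested on simulated data. With a single group there was no comparison and no p-value.

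Named genes were Sqstm1, the 20 most abundant genes outside ribosomal, mitochondrial and predicted symbols, up to 6 highest members and up to 6 members without reads of each of 41 lists, and the 12 widest and 8 narrowest genes. Other genes, and the 24 ligand and receptor sets, were chosen after their values were seen. The members and lists were chosen with earlier results of these data known. Of 1094 list entries, 7 were not analysed here, and not every gene that the naming rule takes is reported here. Promoter windows are RefSeq's, and the first window listed per gene was searched on both strands.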

Additional observations from a re-analysis of the deposited data

How the results depend on the processing

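The count of expressed genes stayed within 1.5 times under thresholds of 0.5, 2 and 5 TPM, at 1 TPM in at least 1 library, with unique reads and without each library. The count without reads did so with at most 3 reads allowed, with unique reads and without each library. Of the 41 lists, 7 were recomputed with unique reads, without mitochondrially encoded genes and without each library: the simple and stratified keratins, mesenchymal, leukocyte, mitosis, S phase and interferon-induced genes. Their mean totals moved by less than 1 SD of the 3 library totals, and their counts of expressed members stayed within 1.5 times. Leaving out a library cannot move the mean of 3 totals by 1 SD, so this rule cannot judge that setting. The mean mitosis total of 970 TPM was 1274 TPM without replicate 1, 950 TPM without replicate 2 and 685 TPM without replicate 3. The share of TPM in the 100 highest genes (35.1%) was 34.8% with unique reads, 33.6% without mitochondrially encoded genes, and 34.8 to 35.7% when a library was left out. The median ratio between libraries (1.24) was 1.23 on TMM-scaled CPM, 1.28 for genes with a mean of at least 1 TPM, 1.34 for genes with at least 1 read in every library, and 1.11 to 1.2 without a library. The count at 2-fold or more (346) was 969 and 2473 under these 2 wider filters, and 39 to 327 without a library. The median log2 SD (0.16) was 0.15 on TMM-scaled CPM, 0.16 with a pseudocount of 0.1, 0.17 from 1 TPM, and 0.10 to 0.18 without a library. The mitosis ratio (4.27) was 4.26 with unique reads, 4.57 on the TMM scale and 1.52 to 4.27 without a library. The S phase ratio (1.71) was 1.72, 1.83 and 1.28 to 1.71. The wider filters add genes of few reads, and for the other settings the cause was not tested. No paired analysis was possible because a single group was described.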
